A study of Arabidopsis thaliana with 4 samples.

Results

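Plastid-encoded genes are the genes carried by the small circular chromosome of the chloroplast. They were taken here as the rows of the deposited expression table whose locus code begins with ATCG and whose mean over the 4 libraries was above 0. Of 133 plastid rows, 52 met that rule, in a table of 32823 rows, and the other 81 were listed at 0 in all 4 libraries. The mean reached at least 1 FPKM in 46 of the 52, and differences were counted over these 46. FPKM counts the sequenced fragments of a row relative to its length and to all mapped fragments of its library.

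The study sequenced RNA of whole Arabidopsis thaliana seedlings of ecotype Col-0, grown at 22 °C in days of 16 h light at 100 μmol per square metre and second and 8 h dark, to compare transcriptomes with and without heat stress. The 4 groups were wild type after heat (WT heat), wild type without heat (WT control), a transgenic line overexpressing the microRNA miR164 after heat (miR164OE heat) and the same line without heat (miR164OE control). Heated seedlings were 5 days old when they were moved to 35 °C, where they stayed for 5 days. Each group is 1 library, so no spread between plants and no p-value can be given, and every difference sets single libraries side by side. The age of the control seedlings at harvest, the promoter driving miR164, the number of transgenic lines and the number of seedlings per library are not recorded in the labels.

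The plastid chromosome is present in many copies per cell and encodes core subunits of the photosynthetic complexes, part of the plastid ribosome, a bacterial-type RNA polymerase, and ribosomal and transfer RNAs. Most photosynthesis genes are known to be transcribed by that polymerase together with nuclear-encoded sigma factors, whereas genes such as rpoB, accD and ycf1 are mainly transcribed by nuclear-encoded phage-type polymerases. Many plastid genes lie in clusters copied into long shared transcripts that are then cut, spliced and edited, and adenosine-rich tails on plastid RNA are known to promote its decay.

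Most of the plastid FPKM was on 2 short rows. PSBN encodes a small protein known in tobacco to help assemble photosystem II, and RPL33 a protein of the large ribosomal subunit. Their coding sequences are shown because of their shortness and because the plastid total turns on them. Both are single uninterrupted coding exons of the TAIR10.1 chloroplast record of RefSeq, PSBN (ATCG00700) at Pt:74249-74380 on the minus strand with 132 bases, and RPL33 (ATCG00640) at Pt:67488-67688 on the plus strand with 201 bases. They are written 5′ to 3′, with the start and stop codons in capitals.
PSBN: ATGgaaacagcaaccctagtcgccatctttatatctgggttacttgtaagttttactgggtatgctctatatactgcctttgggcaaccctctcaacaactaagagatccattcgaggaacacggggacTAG
RPL33: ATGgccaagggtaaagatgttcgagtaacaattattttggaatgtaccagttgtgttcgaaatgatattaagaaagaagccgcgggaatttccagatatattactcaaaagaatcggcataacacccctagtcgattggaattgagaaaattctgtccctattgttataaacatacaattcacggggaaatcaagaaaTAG

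The PSBN row had 307 FPKM in WT heat and 2023 in WT control, and 460 in miR164OE heat and 2878 in miR164OE control. Both heat libraries lay below both control libraries, and control over heat was 6.59-fold in WT and 6.26-fold in miR164OE. The row held 14.3% of the summed plastid FPKM in WT heat and 68.2% in WT control, and 24.6% in miR164OE heat and 76.3% in miR164OE control. RPL33 had 922 FPKM in WT heat and 725 in WT control, and 842 in miR164OE heat and 353 in miR164OE control. Both heat libraries lay above both controls, with a wider gap in miR164OE (2.39-fold) than in WT (1.27-fold). Fragments were estimated only for rows of at least 300 bases, so the number behind PSBN and RPL33 is not known. Of 236 nuclear rows of 195 to 210 bases without an overlapping gene, 2 were above 0 in miR164OE control, the lower at 53.0 FPKM. The folds and shares of PSBN and RPL33 may therefore rest on few fragments. By FPKM, RPL33 ranked 179 in the whole table in WT heat and PSBN ranked 81 in miR164OE control.

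Summed over all plastid rows, FPKM was 2149 in WT heat and 2965 in WT control, and 1868 in miR164OE heat and 3772 in miR164OE control. Without PSBN the order was the other way round, at 1842 in WT heat against 942 in WT control (1.96-fold) and at 1408 in miR164OE heat against 894 in miR164OE control (1.58-fold). Leaving out RPL33 as well, the remaining rows summed to 919 FPKM in WT heat against 217 in WT control (4.25-fold), and to 566 in miR164OE heat against 541 in miR164OE control (1.05-fold). The PSBK row alone supplied 256 of those 541 FPKM. RPS14, PSAC and PSBE, short rows also listed at 0 in the other libraries, supplied 58.1, 43.1 and 27.9. Plastid rows held 0.189% of all FPKM in WT heat and 0.156% in WT control, and 0.175% in miR164OE heat and 0.190% in miR164OE control. In whole seedlings, a change in the number of chloroplast-bearing cells and a change in plastid RNA per cell cannot be told apart.

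**Figure D1:**
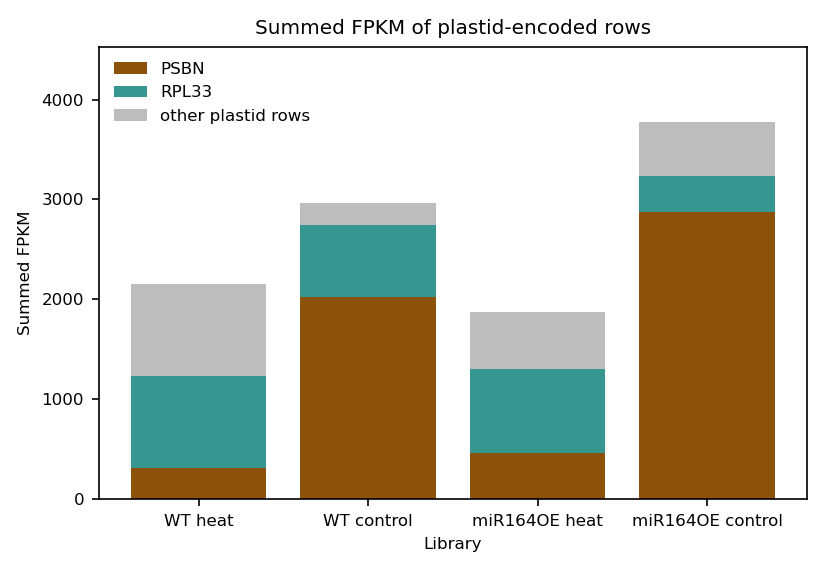
Summed FPKM of all plastid-encoded rows in each library (1 library per bar), split into PSBN, RPL33 and all other plastid rows. PSBN made up 14.3% of the bar in WT heat and 68.2% in WT control, while the other rows reached 919 FPKM in WT heat and 217 in WT control.

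The strand that these values count is not known. The library kit marks strand, but the labels and the file header do not record the strand setting of the quantification. Among 32538 annotated nuclear rows, the 8799 that overlap exons of a gene on the other strand carried 91.5% of the nuclear FPKM in WT heat, 95.3% in WT control, 91.0% in miR164OE heat and 95.6% in miR164OE control. In the plastid, exon overlap across strands was limited to NDHF and YCF1.1, which share 39 bases. PSBN, however, lies 65 bases from PSBT and 104 bases from PSBH, both on the plus strand, inside the psbB cluster, whose shared transcript is known to run across it. No other row above 0 had coding neighbours of the other strand this close on both sides. Every value here, plastid or nuclear, is therefore the FPKM listed for a row, and whether it counts RNA of the gene's own strand was not tested.

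Many plastid rows were listed at 0 in all 4 libraries, short ones more often among coding rows. All 37 transfer RNA rows were at 0, as were 7 of 8 ribosomal RNA rows and 14 of 16 coding rows under 200 bases. Among coding rows of at least 300 bases present in a single copy, 9 of 50 were at 0, namely ATPE, CLPP1, NDHE, NDHK, RPL14, RPL20, RPL22, RPS12A and RPS2. Of 36 rows belonging to genes with a copy in each inverted repeat, 33 were at 0, against 48 of 97 rows of single-copy genes, and the values of such copies are uncertain because their reads match both. YCF1.1, a partial copy of ycf1, was counted among the 97, although the same limit applies to it. None of 1061 nuclear rows of 60 to 179 bases without an overlapping gene was above 0 in any library, whereas PSBN, at 132 bases, reached 2878 FPKM.

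**Figure D2:**
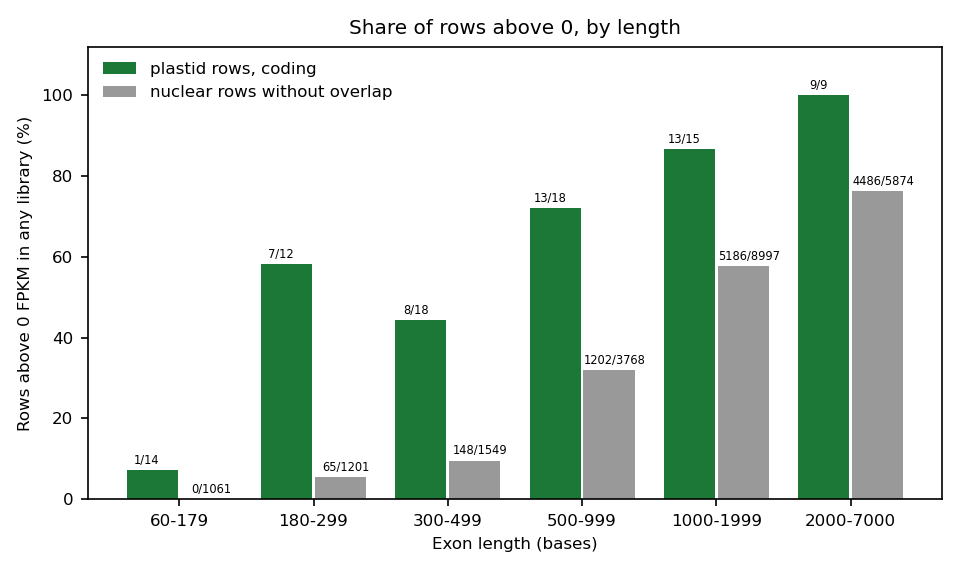
Share of rows above 0 FPKM in any of the 4 libraries (%), by exon length in bases, for plastid coding rows and for nuclear rows without an overlapping gene; the counts stand over the bars. PSBN is the single plastid row above 0 among the 14 of 60 to 179 bases, and none of the 1061 nuclear rows of that length without an overlapping gene was above 0.

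Few fragments stood behind the plastid rows. A single fragment on 1 kb of exon was taken as about 1.77 FPKM in WT heat, 2.03 in WT control, 1.23 in miR164OE heat and 2.19 in miR164OE control. This is the most frequent value of FPKM times exon length among nuclear rows under 6 FPKM. Some rows fall below 1 fragment by it, such as PSBC at 0.409 in WT control, so fragments may be understated. By this estimate the 44 members of at least 300 bases held about 506 fragments in WT heat and 86.8 in WT control, and 470 in miR164OE heat and 81.5 in miR164OE control. Their median was 6.51 fragments in WT heat and 1.33 in WT control, and 6.81 in miR164OE heat and 1.14 in miR164OE control. At this depth a value of 0 in a control library does not show that the RNA was absent, and a difference that involves it is no bound on a fold.

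More plastid rows passed 2-fold between heat and control than between the genotypes, as did more rows of the whole table. Over all rows, 16.8% were higher and 18.9% lower in miR164OE control against WT control. In miR164OE heat against WT heat, 19.6% of all rows were higher and 13.6% lower. In WT, 35 of the 46 (76.1%) were at least 2-fold higher in the heat library and 2 (4.35%) lower, where 29.8% of all 10488 tested rows of the table were higher and 21.7% lower. In miR164OE, 28 rows (60.9%) were higher and 7 (15.2%) lower, where 32.5% of all rows were higher and 17.2% lower. Differences are log2(FPKM + 1) in one library minus the same in the other, and a row was counted at a difference of 1 or more. The median difference of plastid rows was 1.91 in WT, where it was 0 over all rows, and 1.38 in miR164OE, where it was 0.25 over all rows.

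The minimum is on the mean over all libraries, so a row could pass it through the heat libraries alone: 9 of the 46 rows were listed at 0 in both control libraries, and 5 in both heat libraries. Of the rows counted as higher, 14 in WT and 13 in miR164OE were listed at 0 in the control library. For the other 21 in WT, the median ratio of FPKM in heat to control was 4.61 (2.09 to 8.66), and for the other 15 in miR164OE it was 3.34 (2.18 to 25.1). With the plastid rows other than PSBN and RPL33 rescaled to a common sum, 14 rows were higher and 5 lower in WT, in place of 35 and 2, and 27 higher and 7 lower in miR164OE, in place of 28 and 7. Before rescaling, the sum of those rows was 4.25-fold higher in heat in WT and 1.05-fold in miR164OE. In miR164OE control that sum included PSBK (256 FPKM), RPS14 (58.1), PSAC (43.1) and PSBE (27.9), short rows at 0 in the other libraries. Counts under this rescaling that involve miR164OE control therefore depend on these short rows. The rescaling also shifts every other row of a library. In WT heat the median was then 0.32 for plastid rows and -1.62 over all rows, so the shares of all rows above do not apply to it. Rows encoded in the mitochondrion, the other organelle, showed wider heat differences: 65 of 70 passed 2-fold upward in WT, with a median of 4.07, and 61 of 70 in miR164OE, with a median of 4.47.

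The most deeply covered member was YCF1.2, which encodes a large protein of the inner-envelope import machinery and held about 109 fragments in WT heat and 11.9 in WT control, and 72.5 in miR164OE heat and 14.6 in miR164OE control. Its FPKM was 35.8 in WT heat and 4.49 in WT control, and 16.6 in miR164OE heat and 5.96 in miR164OE control. The heat libraries lay above both controls, with differences of 2.74 in WT and 1.34 in miR164OE.

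Taking the genotypes together, 23 of 46 plastid rows (50%) were at least 2-fold higher under heat in both, against 15.1% of all rows, and PSBN was the only one lower in both, against 7.54%. Both heat libraries lay above both control libraries for 27 rows (58.7%), against 30.2% of all rows, and below both for PSBN alone, against 20.1%. Levels in each library appear in the heat map.

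**Figure D3:**
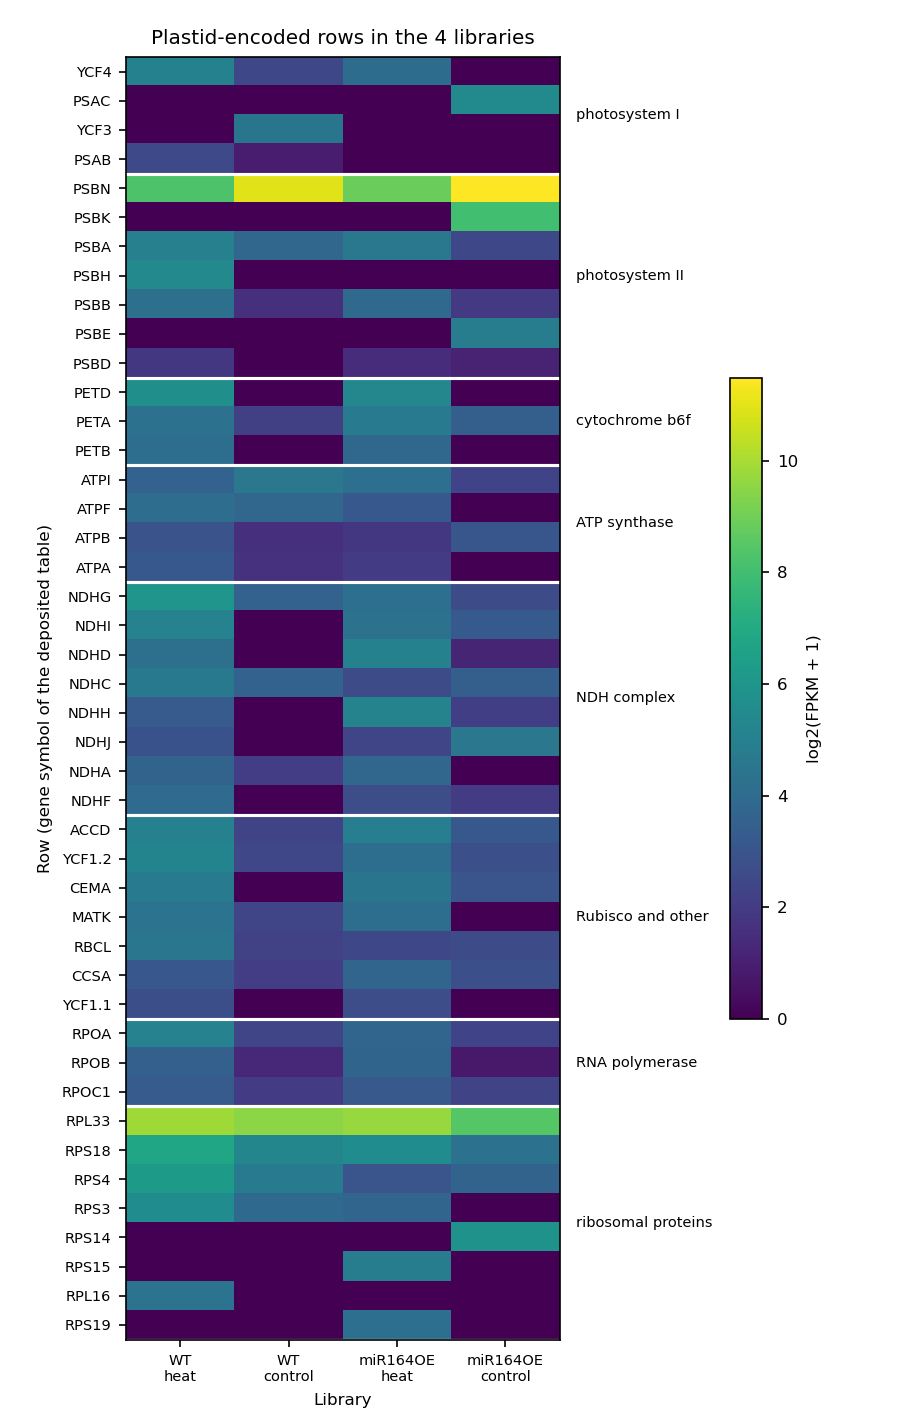
Level of 44 of the 46 plastid-encoded rows that averaged 1 FPKM or more, as log2(FPKM + 1), in the 4 libraries (columns, 1 library each), grouped by complex and ordered by mean within a group. The darkest cells are rows listed at 0, which are most frequent in the control columns; PSBN and RPL33 are the brightest rows.

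Among photosystem I rows, YCF4, whose product helps assemble the complex, had 31.9 FPKM in WT heat and 4.57 in WT control, and 15.95 in miR164OE heat and 0 in miR164OE control. It was higher under heat in both genotypes. PSAB, a core protein of the reaction centre, was above 0 in the WT libraries alone, at 4.75 FPKM in heat and 0.853 in control. YCF3, another assembly factor, had 21.2 FPKM in WT control and was listed at 0 elsewhere. PSAC, the iron-sulfur subunit, had 43.1 FPKM in miR164OE control and was likewise at 0 in the other libraries. PSAA, the partner of PSAB, stayed below the 1 FPKM mean, at 1.45 FPKM in WT heat, 0.968 in miR164OE heat and 0 in both controls. The 4 tested photosystem I rows thus included 2 higher and 1 lower in WT heat, and 1 higher and 1 lower in miR164OE heat.

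In photosystem II, PSBA encodes the D1 protein, the reaction centre subunit that is damaged by light and replaced most often. PSBA had 31.4 FPKM in WT heat and 13.0 in WT control, and 23.3 in miR164OE heat and 4.60 in miR164OE control. PSBB, the inner antenna protein CP47, had 17.9 FPKM in WT heat and 2.07 in WT control, and 14.4 in miR164OE heat and 2.83 in miR164OE control. For both rows the heat libraries were above both controls, with differences of 1.21 and 2.12 for PSBA and of 2.62 and 2.004 for PSBB in WT and miR164OE. PSBD, the D2 protein, was near the lower limit, at 2.60 FPKM in WT heat and 0 in WT control, and 1.72 in miR164OE heat and 1.16 in miR164OE control.

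PSBC, the inner antenna protein CP43, was below the minimum, at 0 FPKM in WT heat and 0.583 in WT control, and 1.87 in miR164OE heat and 0 in miR164OE control. The other photosystem II rows were each seen in a single library. PSBK, a small membrane subunit of 186 bases, had 256 FPKM in miR164OE control, and PSBE, a subunit of cytochrome b559, had 27.9 FPKM in the same library. PSBH, a small phosphoprotein of 222 bases, had 42.1 FPKM in WT heat. All 3 were listed at 0 in the other libraries. On rows this short a single fragment is worth many FPKM: of 80 nuclear rows about as long as PSBK and without an overlapping gene, a lone row was above 0, at 152 FPKM in WT control.

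Cytochrome b6f carries electrons between the photosystems, and its 3 tested rows were higher under heat in both genotypes. PETA, cytochrome f, had 19.3 FPKM in WT heat and 3.48 in WT control, and 24.7 in miR164OE heat and 10.03 in miR164OE control. PETB, cytochrome b6, was at 16.7 FPKM in WT heat, at 13.2 in miR164OE heat and at 0 in both controls. PETD, subunit IV, was at 51.2 FPKM in WT heat, at 39.1 in miR164OE heat, again with 0 in both controls. About 14.02 fragments in WT heat and 15.3 in miR164OE heat stood behind PETD. The median difference of the group was 4.15 in WT and 3.83 in miR164OE. Both values are those of PETB, listed at 0 in both controls, so their size is not ranked against other groups. PETA, which was above 0 in the controls, had differences of 2.18 in WT and 1.22 in miR164OE.

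ATP synthase rows did not move as one. ATPA, the alpha subunit, had 7.98 FPKM in WT heat and 2.08 in WT control, and 3.17 in miR164OE heat and 0 in miR164OE control. ATPF, a stator subunit, had 16.2 FPKM in WT heat and 13.1 in WT control, and 8.07 in miR164OE heat and 0 in miR164OE control. ATPI, the membrane subunit a, had 11.4 FPKM in WT heat and 22.2 in WT control, and 17.1 in miR164OE heat and 3.96 in miR164OE control. ATPI was thus below control in WT heat, by a difference of -0.91, and above control in miR164OE heat, by 1.87. ATPB, the catalytic beta subunit, had 6.69 FPKM in WT heat and 1.90 in WT control, and 2.68 in miR164OE heat and 7.45 in miR164OE control. Its difference was 1.41 in WT and -1.20 in miR164OE, and with a pseudocount of 5 it was 0.76 and -0.70, under 2-fold in both. The group median was 0.85 in WT and 1.96 in miR164OE, and the WT value was below 0, at -0.95, when plastid rows other than PSBN and RPL33 were rescaled to a common sum. Under that rescaling the WT median over all rows was -1.62.

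The NDH complex passes electrons from ferredoxin back to the plastoquinone pool. All 8 tested NDH rows were higher in WT heat, with a median difference of 3.11, and in miR164OE heat 5 were higher and 1 lower, with a median of 1.30. NDHG had 62.5 FPKM in WT heat and 11.3 in WT control, and 17.6 in miR164OE heat and 5.26 in miR164OE control. NDHI had 33.0 FPKM in WT heat and 0 in WT control, and 18.4 in miR164OE heat and 8.45 in miR164OE control. Both rows kept the heat libraries above both controls.

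NDHD had 17.7 FPKM in WT heat and 0 in WT control, and 32.5 in miR164OE heat and 1.30 in miR164OE control. For NDHH the values were 8.98 FPKM in WT heat and 0 in WT control, and 34.7 in miR164OE heat and 3.43 in miR164OE control. NDHA was at 11.5 FPKM in WT heat and 3.28 in WT control, and at 13.0 in miR164OE heat and 0 in miR164OE control. These 3 membrane and connecting subunits had their highest value in miR164OE heat. NDHF, by contrast, had 15.2 FPKM in WT heat and 0 in WT control, and 5.57 in miR164OE heat and 3.02 in miR164OE control. NDHJ had 6.48 FPKM in WT heat and 0 in WT control, and 4.35 in miR164OE heat and 22.7 in miR164OE control. NDHJ was highest in miR164OE control, at about 4.96 fragments, so its heat differences of 2.90 in WT and -2.15 in miR164OE had opposite signs. NDHJ and ATPB were the only plastid rows beyond 2-fold upward in WT and downward in miR164OE (4.35%, against 2.28% of all rows).

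Among Rubisco and other metabolic rows, all 7 tested were higher in WT heat (median 2.70) and 5 in miR164OE heat (median 1.41), with none lower. ACCD, a subunit of the carboxylase that starts fatty acid synthesis, had 32.5 FPKM in WT heat and 4.17 in WT control, and 28.9 in miR164OE heat and 8.09 in miR164OE control. CEMA, an envelope protein, had 25.4 FPKM in WT heat and 0 in WT control, and 21.1 in miR164OE heat and 7.28 in miR164OE control. MATK, the intron maturase, had 19.5 FPKM in WT heat and 4.23 in WT control, and 16.8 in miR164OE heat and 0 in miR164OE control. In each of the 3, both heat libraries were above both controls. YCF1.1, a partial copy of ycf1, had 5.75 FPKM in WT heat, 5.60 in miR164OE heat and 0 in both controls. Reads of this copy may match YCF1.2 as well, so its values are uncertain. RBCL, the large subunit of the carbon-fixing enzyme Rubisco, had 22.0 FPKM in WT heat and 3.60 in WT control, and 4.58 in miR164OE heat and 5.11 in miR164OE control. RBCL stood out from the other 3 libraries in WT heat alone.

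RNA polymerase rows were higher under heat in both genotypes, although RPOC1 missed 2-fold in miR164OE. RPOB, the beta subunit, had 10.5 FPKM in WT heat and 1.52 in WT control, and 12.1 in miR164OE heat and 0.743 in miR164OE control. RPOA, the alpha subunit, had 32.8 FPKM in WT heat and 4.21 in WT control, and 12.4 in miR164OE heat and 3.95 in miR164OE control. RPOC1 had 8.83 FPKM in WT heat and 2.96 in WT control, and 8.40 in miR164OE heat and 4.17 in miR164OE control. Heat libraries were above both controls for all 3, with median differences of 2.19 in WT and 1.44 in miR164OE.

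Ribosomal protein rows other than RPL33 summed to 275 FPKM in WT heat and 77.2 in WT control, and to 129 in miR164OE heat and 88.0 in miR164OE control. RPS18, which follows RPL33 on the chromosome, had 109 FPKM in WT heat and 38.0 in WT control, and 46.8 in miR164OE heat and 18.4 in miR164OE control. RPS4 had 74.8 FPKM in WT heat and 24.7 in WT control, and 7.28 in miR164OE heat and 11.5 in miR164OE control. RPS18 was higher under heat in both genotypes, and RPS4 in WT only. RPS3 had 47.2 FPKM in WT heat and 14.4 in WT control, and 12.5 in miR164OE heat and 0 in miR164OE control. RPS3, a protein of the small subunit, was also higher under heat in both genotypes.

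A further 4 ribosomal protein rows appeared in a single library each. RPS14 had 58.1 FPKM in miR164OE control, RPL16 had 20.02 in WT heat, and RPS19 and RPS15 had 17.6 and 28.6 in miR164OE heat. Over the whole group, 6 of 10 rows were higher and none lower in WT heat (median 1.53), and 7 were higher and 1 lower in miR164OE heat (median 1.87).

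**Figure D4:**
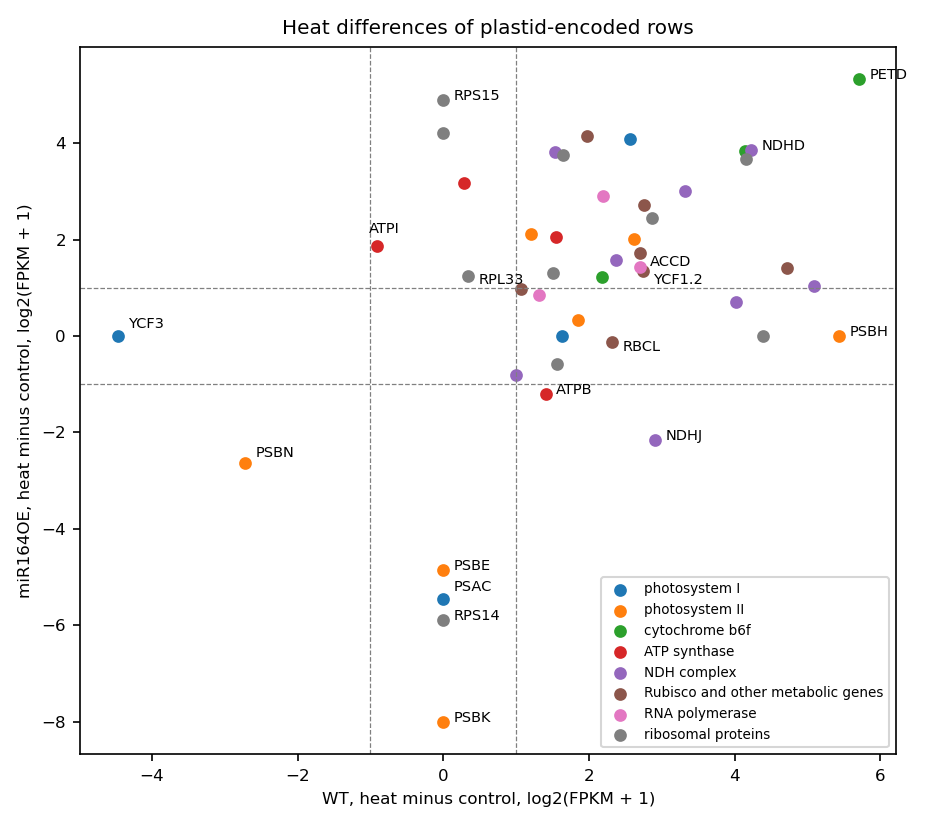
Heat minus control difference of log2(FPKM + 1) for the 46 plastid-encoded rows, with WT on the horizontal and miR164OE on the vertical axis and points coloured by complex; dashed lines mark a 2-fold difference. Most points lie in the upper right, PSBN lies at the lower left, and NDHJ and ATPB are beyond 2-fold with opposite signs.

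Sums were also formed over rows that share a cluster on the chromosome, a grouping chosen after the values had been seen. In the psbB cluster, which encodes PSBB, PSBT, PSBH, PETB and PETD, the rows summed to 128 FPKM in WT heat and 2.06 in WT control, and to 66.7 in miR164OE heat and 2.83 in miR164OE control. PSBN, which lies on the other strand inside that cluster, had its higher values in the controls. From accD to petA, the sums were 109 FPKM in WT heat and 12.2 in WT control, and 90.7 in miR164OE heat and 25.4 in miR164OE control. The ribosomal protein cluster that ends in rpoA summed to 123 FPKM in WT heat and 18.6 in WT control, and to 58.5 in miR164OE heat and 3.95 in miR164OE control. All 3 clusters were higher in both heat libraries. The atpI cluster was not, with 35.5 FPKM in WT heat and 37.4 in WT control, and 28.4 in miR164OE heat and 3.96 in miR164OE control.

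Rows were also grouped by the polymerase known to transcribe them. For the 5 tested rows of the nuclear-encoded polymerase class (RPOB, RPOC1, ACCD and both YCF1 rows), all were higher in WT heat, with a median of 2.70, and 4 in miR164OE heat, with a median of 1.72. YCF1.1 is a partial copy of ycf1, so the YCF1 rows are not independent members. Of 10 tested rows of the plastid-encoded class (photosystem genes and RBCL), 6 were higher and 1 lower in WT heat, with a median of 1.42. In miR164OE heat 2 were higher and 4 lower, with a median of -0.06 that was 0 with nuclear or with plastid rows rescaled. With plastid rows other than PSBN and RPL33 rescaled, the WT heat counts were 1 of 5 higher in the nuclear-encoded class (median 0.82) and 2 higher and 1 lower of 10 in the plastid-encoded class (median 0.14), where the median over all rows was -1.62. The rows at 0 outside miR164OE control, PSBK, PSBE and PSAC, supply 3 of the 4 rows of this class that were lower in miR164OE heat. The TATAAT box of bacterial-type promoters occurred, on either strand, in the window from 250 bases before to 50 bases after the start codon of 10 of 21 genes of the plastid-encoded class, and in 36 of 86 windows of all plastid coding genes. TTGACA occurred in 1 of those 21 and in 14 of all 86.

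Nuclear genes for the same complexes were set beside the plastid rows. Of 35 tested nuclear subunits of the photosynthetic complexes and Rubisco, 2 were at least 2-fold higher and 21 lower in WT heat, with a median difference of -1.08, and 1 was higher and 6 lower in miR164OE heat, with a median of -0.39. Among all rows 29.8% were higher and 21.7% lower in WT heat, and 32.5% and 17.2% in miR164OE heat, so that the miR164OE share of lower subunits was near that of the table. Exons of 5 of 11 tested photosystem I, 2 of 10 photosystem II and 2 of 4 NDH rows overlap a gene on the other strand, and may count that gene. Rows without such an overlap, among them PSAD2, PSBW, PETC and RBCS3B, share the unknown strand setting. Whether their values count RNA of the gene itself was not tested, which limits the comparison with plastid rows. PSAD2, a stromal photosystem I subunit, had 9.26 FPKM in WT heat and 60.1 in WT control, and 19.5 in miR164OE heat and 23.3 in miR164OE control. PSBW, of photosystem II, had 2.64 FPKM in WT heat and 20.02 in WT control, and 4.61 in miR164OE heat and 16.9 in miR164OE control. PETC, the Rieske protein that works beside PETA and PETB, had 2.83 FPKM in WT heat and 15.5 in WT control, and 3.83 in miR164OE heat and 16.1 in miR164OE control. Each of the 3 was lower in both heat libraries than in its control, where PSBB, PETA and PETB were higher. For Rubisco, RBCS3B of the small subunit had 46.0 FPKM in WT heat and 98.2 in WT control, and 53.7 in miR164OE heat and 70.8 in miR164OE control, while the plastid RBCL row was higher in WT heat.

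Nuclear-encoded plastid ribosomal proteins had 11 tested rows, and exons of 4 of them overlap a gene on the other strand. Of the 11, 2 were higher and 4 lower in WT heat (median -0.69), and 1 was higher and 3 lower in miR164OE heat (median -0.21). With so few members, these counts are read beside the shares of all rows above and no difference from them is drawn. Nuclear proteins of plastid transcription were at low levels, and the same holds for the counts that follow. Among 5 tested sigma factors, which direct the plastid-encoded polymerase to promoters, none was higher and 2 were lower in WT heat, and 1 was higher in miR164OE heat. SIG4 had 0 FPKM in WT heat and 1.46 in WT control, and 3.24 in miR164OE heat and 2.83 in miR164OE control. Of 5 tested proteins that associate with that polymerase, 2 were higher and 1 lower in WT heat, and 1 was higher in miR164OE heat. PAP12 was at 2.78 FPKM in WT heat, at 3.84 in miR164OE heat and at 0 in both controls. Exons of SIG4 and PAP12 overlap a gene on the other strand. Among 7 tested plastid RNA-binding and RNase proteins, none was higher and 3 were lower in WT heat, and 2 were higher and 1 lower in miR164OE heat, and exons of 5 of the 7 overlap a gene on the other strand. Neither phage-type polymerase, RPOTp or RPOTmp, reached a mean of 1 FPKM.

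**Figure D5:**
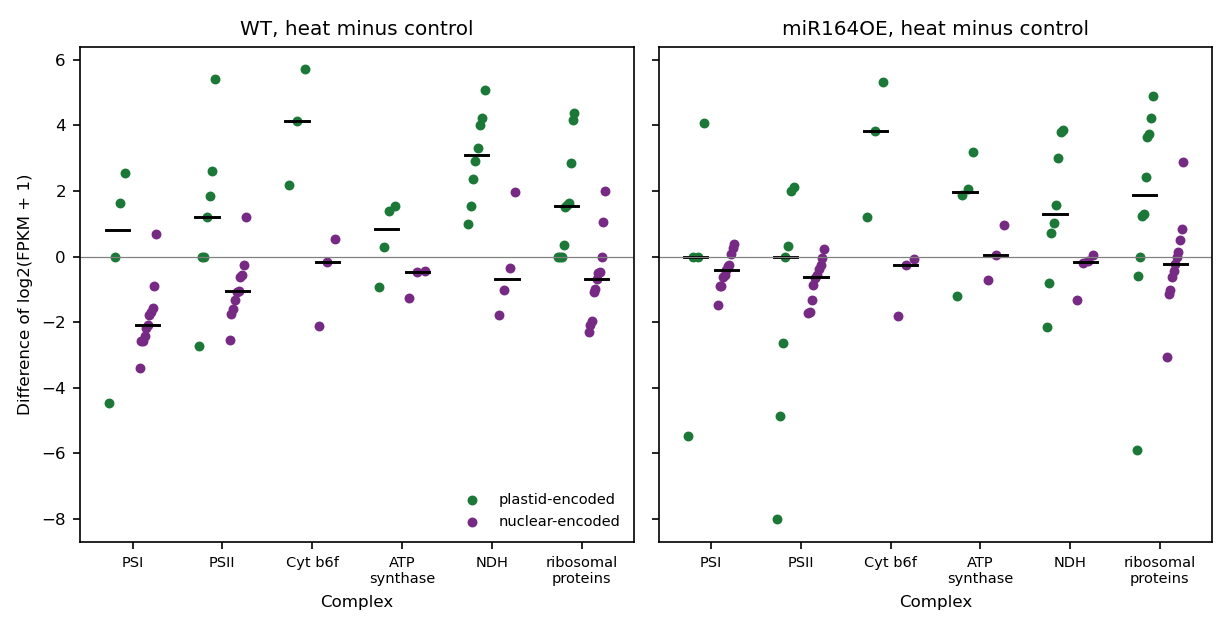
Heat minus control difference of log2(FPKM + 1) in WT (left) and miR164OE (right) for plastid-encoded rows and for nuclear-encoded subunits of the same complexes; each point is a row and black bars are medians. In WT the plastid medians lie above 0 and the nuclear medians below it in all 6 complexes with FPKM as deposited, which is not so in miR164OE, where the plastid medians of both photosystems are at 0. With plastid rows other than PSBN and RPL33 rescaled, the plastid median in WT was -0.95 for ATP synthase, 0 for photosystem II and for ribosomal proteins, and 0.14 for photosystem I. That rescaling shifts all rows, with a median of -1.62 over the whole table in WT, and the nuclear medians shown are without it.

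Between the genotypes without heat, plastid rows divided evenly. In miR164OE control against WT control, 13 of 46 passed 2-fold upward and 12 downward, where 16.8% of all rows were higher and 18.9% lower, and the median difference was 0. With plastid rows other than PSBN and RPL33 rescaled to a common sum, the split was 11 higher and 17 lower. The rescaling shifts all rows of the table, so the shares of all rows given here do not apply to it. The 4 rows seen in miR164OE control alone, PSBK, RPS14, PSAC and PSBE, are all of 303 bases or fewer. In the other direction, MATK, ATPA, ATPF, YCF3, YCF4, PSAB, RPS3 and NDHA were above 0 in WT control and listed at 0 in miR164OE control.

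Between the heated genotypes, more plastid rows were lower than higher in miR164OE. In miR164OE heat against WT heat, 3 of 46 (6.52%) passed 2-fold upward and 14 (30.4%) downward, where 19.6% of all rows were higher and 13.6% lower. The median difference was -0.35, against 0 over all rows, and it was 0.08 with plastid rows other than PSBN and RPL33 rescaled. RPS4 (-3.20), RBCL (-2.04), NDHC (-1.93), RPS3 (-1.84), NDHG (-1.77) and YCF1.2 (-1.06) were among the lower rows, and NDHH (1.84) was higher. Under the same rescaling the split was 7 higher and 8 lower. That setting shifts all rows of the table, so the shares and the median of all rows given here do not apply to it.

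Considering both treatments, ATPA, RPS4, RPS18 and RPS3 were at least 2-fold lower in miR164OE than in WT each time (8.70% of the plastid rows, against 2.69% of all rows). NDHH alone was higher each time (2.17%, against 3.99%). Both miR164OE libraries lay below both WT libraries for 5 rows, ATPF, PSAB, RPS4, NDHC and RPS3 (10.9%, against 9.4% of all rows), and above both for none (against 10.7%).

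The heat difference of WT was subtracted from that of miR164OE for each row. The result was at least 1 for 9 of 46 plastid rows and at most -1 for 18, where it was so for 27.7% and 22.3% of all rows, and the median was -0.47, against 0.06 over all rows. With plastid rows other than PSBN and RPL33 rescaled, the split was 19 and 12 and the median 0.48, where the median over all rows was 1.80. The plastid median was thus below that of all rows under both settings. The shares of all rows given here are for FPKM as deposited. PSBN had nearly the same heat difference in both genotypes, -2.72 in WT and -2.64 in miR164OE, so that it differed between them by 0.07.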

How the data were processed

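The authors deposited 1 table of FPKM values, with 1 column for each of the 4 libraries. Per the submitters' processing notes, bcl2fastq 2.1.7, TopHat and Cufflinks were used with the build TAIR10. For the strand setting, the annotation, the depth, poly(A) selection and the TopHat and Cufflinks versions, the entry is: not given in the sources used here. Per the labels' protocols, Trizol was used to extract RNA, and the Agilent SureSelect library kit keeps the strand.

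Differences of log2(FPKM + 1) were computed over rows averaging 1 FPKM or more, which understates the change of low rows, and a row was counted at a difference of 1 or more (2-fold). With 1 library per group there was no test. Of the 133 plastid rows, 130 were matched to the RefSeq TAIR10.1 chloroplast annotation, which gave exon lengths, strands and sequences. Fragments were approximated as FPKM times exon length over the FPKM worth of 1 fragment, taken in each library as the mode over nuclear rows of 800 to 2500 bases without overlap and under 6 FPKM. Python 3.11.15, pandas 2.3.3 and numpy 2.4.6 were used.

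The plastid rows, the gene lists and the alternatives were chosen with earlier results of these data known. Values are given for the 15 plastid rows with the highest mean, for rows 2-fold different in the same or in opposite directions under heat in both genotypes, and for rows at 0 in some libraries with at least 10 FPKM in another, and from each nuclear list for at most 4 of the members with the largest heat differences. Rows just above the minimum were PSBD, with a mean of 1.37 FPKM, and PSAB, with 1.40; just below were PSBC, with 0.612, and PSAA, with 0.605. A further 2 plastid rows that meet the rule are not reported here by name; they remain in the counts and sums.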

Additional observations from a re-analysis of the deposited data

Results flagged for a closer look

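Plastid rows NDHJ and ATPB were beyond 2-fold under heat in opposite directions in the genotypes, as were 2.28% of all rows in the same sense. NDHJ, a peripheral NDH subunit, had a difference in log2(FPKM + 1) of 2.90 in WT and -2.15 in miR164OE. It rested on about 1.75 fragments in WT heat and 0 in WT control, and 1.68 in miR164OE heat and 4.96 in miR164OE control. ATPB, the catalytic subunit of ATP synthase, had 1.41 in WT and -1.20 in miR164OE. For ATPB the call depended on the setting: with a pseudocount of 5 its differences were 0.76 and -0.70, and in miR164OE it was -0.44 with nuclear rows and -0.38 with all plastid rows rescaled, while with plastid rows other than PSBN and RPL33 rescaled the WT difference was -0.22 (median over all rows -1.62). With 1 library per group the difference between the genotypes was not tested.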

How the results depend on the processing

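No paired analysis was possible because each group is 1 library without replicate numbers, and for the same reason no library could be left out. Of 11 alternative settings, 2 were chosen after seeing the data: rescaling the plastid rows other than PSBN and RPL33, and a minimum of about 20 fragments on rows of at least 300 bases. Of the medians and 2-fold counts, 137 values stayed close to those reported and 28 moved. A pseudocount of 5 gave a WT heat median of 1.22, 7 rows higher and 5 lower in miR164OE control against WT control, 9 lower in miR164OE heat against WT heat, and 5 higher for the difference of heat differences. Rescaling nuclear rows to a common sum gave heat medians of 2.53 in WT and 2.23 in miR164OE, with all rows at 0.70 and 1.09, and rescaling all plastid rows gave 2.29 in miR164OE, with all rows at 1.15. Over rows of at least 300 bases, 1 row was lower in WT heat, 3 in miR164OE heat, and 1 was higher in miR164OE heat against WT heat.

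With plastid rows other than PSBN and RPL33 rescaled, the WT heat median was 0.32 (all rows -1.62), with 14 rows higher and 5 lower. Then 7 rows were higher and 8 lower in miR164OE heat against WT heat, and the difference of heat differences had a median of 0.48 (all rows 1.80), with 19 rows higher. Only under this setting did rows turn round, all in WT heat: PSBA -0.79, ATPA -0.12, RPOC1 -0.44, RPS4 -0.48, NDHC -0.98, ATPB -0.22, RPS18 -0.55, RPS3 -0.37, CCSA -0.69 and NDHA -0.25. Over the 21 rows with about 20 or more fragments, 20 were higher and 0 lower in WT heat, 17 and 0 in miR164OE heat, 5 and 7 in miR164OE control against WT control, 1 and 8 in miR164OE heat against WT heat, and 4 and 6 for the difference of heat differences. Heat libraries hold most of those fragments, so rows high under heat pass more easily and the heat counts there support nothing; fewer rows are counted by construction, and for the other settings the cause was not tested. Few fragments in the control libraries limit every row.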
